A study of Mus musculus with 9 samples.

Results

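The 9 genes described here act in the innate response to foreign nucleic acid: the RNA sensors Ddx58, Ifih1, Dhx58 and Tlr3, the nucleic acid sensor Zbp1, and the transcription factors Irf1, Irf7, Irf9 and Stat2. They were taken by gene symbol, and all 9 were found among the 26202 genes of the deposited table. The table holds 9 libraries of ATDC5, a mouse chondrogenic cell line that can form cartilage-like matrix in culture, in 3 groups of 3: control, acetate and ethanol. All 3 groups were grown in DMEM/F-12 with fetal bovine serum, penicillin and streptomycin, and were exposed in this medium enriched with sodium ascorbate, beta-glycerophosphate and insulin-transferrin-selenium. The sources used here do not state how much acetate or ethanol was added, for how long, or what control cells received in its place. The labels do not call the replicates separate cultures, so the p-values reflect variation between the libraries that may be technical.

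RIG-I, the product of Ddx58, and MDA5, the product of Ifih1, are helicases that bind double-stranded RNA in the cytosol and signal through the adaptor MAVS, whereas TLR3 senses such RNA in endosomes and signals through the adaptor TRIF. The signal activates IRF factors, which switch on interferon genes. Secreted interferon then acts on cells through its receptors, JAK kinases and ISGF3, a complex that contains STAT2 and IRF9 and binds interferon-stimulated response elements. The sensors and factors of the pathway are themselves among the known targets of interferon. The study set acetate, which cells make when they oxidise ethanol, beside ethanol itself.

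With ethanol, 5 of the 9 genes rose past the threshold and none fell, where 1.48% of all tested genes rose and 2.45% fell, and the mean level of all 9 was above that of control. Zbp1 had the largest rise (3.00-fold), Ifih1 rose 2.02-fold, and Ddx58, Irf9 and Stat2 rose 1.5-fold to 1.65-fold. The number of these genes past the threshold was 1 or 2 when any 1 control or ethanol library was left out. It was 8 without acetate replicate 2. With acetate none of the 9 passed the threshold with all libraries in the fit, and acetate replicate 2 was the highest or the lowest acetate library in 8 of the 9 genes. Compared directly, Ifih1 was 1.61-fold higher in ethanol than in acetate. That difference missed the threshold without any 1 ethanol library, with only the 6 libraries compared, or with each library's trend with transcript GC content removed.

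Levels are TMM-scaled CPM, reads per library scaled to a common total, given as mean ± SD with n = 3 libraries per group. Each log2 fold change was computed from log2(CPM + 1) and is given with its standard error. Adjusted p-values are from limma with Benjamini-Hochberg adjustment over the 12868 genes whose mean reached 1 CPM. A gene is past the threshold at an adjusted p under 0.05. All 9 genes passed the filter on low values. The libraries held 28.7 to 41.9 M recovered reads, and the lowest number of reads for any of the 9 genes in any library was 642, for Zbp1. All 12 chondrogenic genes checked (Sox9, Col2a1, Acan and others) were detected, at a summed level of 12300 to 16040 CPM in control, 6586 to 7201 in acetate and 5926 to 7324 in ethanol. In bulk RNA, fewer cells of a type and less RNA per cell cannot be told apart. Acetate replicate 2 departed from the other acetate libraries in step with transcript GC content (Pearson r = 0.83 over 12746 genes, not independent of each other). Results that change without it are given both ways.

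RefSeq start sites gave 9 promoter windows for 7 of the genes (build GRCm38.p6), each of 250 bases before and 50 after the start, written on the gene's strand. The windows that held a match to an element of interferon signalling are shown, 3 of them from genes that rose with ethanol. Irf9 also rose, and its windows held no such match, nor did those of Irf7 and Tlr3. For Dhx58 and for Zbp1, which had the largest rise, there was no window. Capitals mark GAAANNGAAA on either strand, the core of the interferon-stimulated response element, in Ifih1, Ddx58 and Stat2. In Irf1 they mark the palindrome TTCNNNGAA, the core of the element bound by STAT dimers.
Ifih1, chr2:62646206-62646505, minus strand: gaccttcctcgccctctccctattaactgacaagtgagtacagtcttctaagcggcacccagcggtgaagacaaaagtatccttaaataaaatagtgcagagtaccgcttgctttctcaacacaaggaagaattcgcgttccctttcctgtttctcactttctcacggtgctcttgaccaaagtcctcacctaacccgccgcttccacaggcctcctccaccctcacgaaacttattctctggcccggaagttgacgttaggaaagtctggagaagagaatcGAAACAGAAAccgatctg
Ddx58, chr4:40239776-40240075, minus strand: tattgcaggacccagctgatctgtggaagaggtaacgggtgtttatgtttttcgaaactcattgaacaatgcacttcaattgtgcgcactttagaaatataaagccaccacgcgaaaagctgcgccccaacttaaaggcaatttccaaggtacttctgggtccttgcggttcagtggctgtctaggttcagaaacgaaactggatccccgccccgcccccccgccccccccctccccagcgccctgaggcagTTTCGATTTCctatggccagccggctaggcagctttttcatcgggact
Stat2, chr10:128270248-128270547, plus strand: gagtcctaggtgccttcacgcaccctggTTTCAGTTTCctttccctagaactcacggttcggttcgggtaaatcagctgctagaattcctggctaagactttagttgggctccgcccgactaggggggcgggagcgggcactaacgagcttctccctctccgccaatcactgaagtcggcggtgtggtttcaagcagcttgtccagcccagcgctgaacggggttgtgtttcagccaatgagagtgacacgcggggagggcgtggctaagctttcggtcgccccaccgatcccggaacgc
Irf1, chr11:53769764-53770063, plus strand: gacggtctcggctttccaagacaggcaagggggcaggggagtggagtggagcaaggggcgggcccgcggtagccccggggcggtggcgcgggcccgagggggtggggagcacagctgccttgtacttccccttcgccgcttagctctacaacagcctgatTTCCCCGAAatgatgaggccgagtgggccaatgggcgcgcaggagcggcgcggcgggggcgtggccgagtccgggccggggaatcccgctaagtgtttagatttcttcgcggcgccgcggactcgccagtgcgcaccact

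Counted from the start site, the matches began at base 33 in Ifih1, base 3 in Ddx58, base -222 in Stat2 and base -90 in Irf1. Of all 32851 promoter windows of this length, 3.44% held GAAANNGAAA and 8.30% held TTCNNNGAA. The NF-kB core GGGANNNNCC, searched on both strands, had 3 matches in Tlr3 and 1 in the Irf1 window shown, and was held by 20.7% of all windows. None of the matches in these windows overlapped another.  A match describes the letters and is no evidence of binding.

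Ifih1 codes for MDA5, the sensor of long double-stranded RNA (chromosome 2, 62595798 to 62646255, minus strand, GRCm38). Its level was 83.6, 90.5 and 69.6 CPM in control replicates 1, 2 and 3, and 159, 179 and 154 CPM in the ethanol replicates. The acetate replicates had 109.6, 94.3 and 100.2 CPM. The 3 groups did not overlap, and every acetate library lay above every control library and below every ethanol library. From control to ethanol Ifih1 rose by a log2 fold change of 1.01 ± 0.13 (adjusted p = 0.00457). It was the only one of the 9 genes whose rise passed in all 22 alternative settings, with adjusted p-values of 2.32e-51 to 0.0358. The lowest came from the fit with a replicate block and without acetate replicate 2, and is no measure of strength. With the block alone the value was 0.00535. The ranges over alternatives given for the other genes include that same fit. The difference between ethanol and acetate was 0.69 ± 0.13 (adjusted p = 0.0201), and that between acetate and control was 0.32 ± 0.13 and missed the threshold (adjusted p = 0.294). Without ethanol replicate 1, 2 or 3 the direct difference from acetate also missed it, and it was 0.36 after removal of each library's GC trend (adjusted p = 0.245, with 6.02e-12 to 0.245 over its alternatives).

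Ddx58 codes for RIG-I, which senses short double-stranded RNA ends (chromosome 4, 40203773 to 40239828, minus strand). It was measured at 268, 289 and 220.0 CPM in control, 306, 289 and 271 in acetate, and 376, 416 and 370.0 in ethanol. All ethanol libraries were above all others, while control and acetate overlapped. The rise with ethanol was 0.59 ± 0.13 (adjusted p = 0.039). For ethanol against acetate the log2 difference was 0.42 ± 0.13 (adjusted p = 0.11), and for acetate against control 0.16 ± 0.13 (adjusted p = 0.50), both short of the threshold. Acetate replicate 2 differed here from the mean of the other acetate libraries by 0.003 on the log2 scale.

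Dhx58 codes for LGP2, the related helicase that lacks the signalling domains of RIG-I and MDA5 (chromosome 11, 100694884 to 100704271, minus strand). Control libraries stood at 86.5, 90.7 and 65.8 CPM and ethanol libraries at 130.3, 151 and 108.5, with no overlap. Acetate libraries stood at 89.2, 156 and 71.6, so that acetate replicate 2 was above every ethanol library and the other acetate libraries were within the control range. The difference between ethanol and control, 0.68 ± 0.27, missed the threshold (adjusted p = 0.22). With a block for replicate number it passed (adjusted p = 0.0484) and so it did when acetate replicate 2 was left out (adjusted p = 0.0119, with 4.65e-23 to 0.51 over its alternatives). For acetate against control, 0.31 with all libraries (adjusted p = 0.53) became -0.01 without acetate replicate 2.

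Tlr3, the endosomal receptor for double-stranded RNA (chromosome 8, 45395665 to 45411080, minus strand), separated control from ethanol with little spread within either group. Control libraries read 70.6, 71.7 and 67.4 CPM and ethanol libraries 135.1, 147 and 148. Acetate replicates 1 and 3 read 71.9 and 74.4, at the level of control, and acetate replicate 2 read 24.9, below every other library. With all libraries in the fit the 2.03-fold difference between ethanol and control did not pass (log2 fold change 1.02 ± 0.34, adjusted p = 0.15). Without acetate replicate 2, which is in neither of the groups compared but widens the shared variance, the same log2 fold change had an error of 0.07 (adjusted p = 3.6e-05, with 8.05e-52 to 0.39 over its alternatives). Ethanol against acetate gave 1.46 ± 0.34 with all libraries (adjusted p = 0.051) and 0.96 ± 0.08 without acetate replicate 2 (adjusted p = 1.7e-04, with 1.26e-31 to 0.175 over its alternatives). Acetate against control was -0.44 ± 0.34 (adjusted p = 0.50) and turned to 0.06 without that library.

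Zbp1 binds nucleic acids in the Z conformation and can start necroptosis through the kinase RIPK3 (chromosome 2, 173206612 to 173218923, minus strand). It had 24.4, 29.7 and 16.3 CPM in control, 32.1, 68.2 and 27.9 in acetate, and 68.5, 88.8 and 57.1 in ethanol. Ethanol and control did not overlap, whereas acetate replicate 2 lay inside the ethanol range. The rise with ethanol was 1.58 ± 0.34 on the log2 scale (adjusted p = 0.035). The difference from acetate was 0.82 ± 0.34 (adjusted p = 0.21), and passed once replicate number was a block in the fit (adjusted p = 0.037) and without acetate replicate 2 (1.21 ± 0.23, adjusted p = 0.010, with 1.18e-32 to 0.452 over its alternatives). Mlkl, which codes for the executioner of necroptosis downstream of RIPK3, rose with ethanol from 68.8 ± 1.68 to 104.9 ± 7.79 CPM (0.60 ± 0.10, adjusted p = 0.013) and was also higher in ethanol than in acetate (0.64 ± 0.10, adjusted p = 0.00994). Ripk3 itself was below the filter, at no more than 0.12 CPM in any library.

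**Figure D1:**
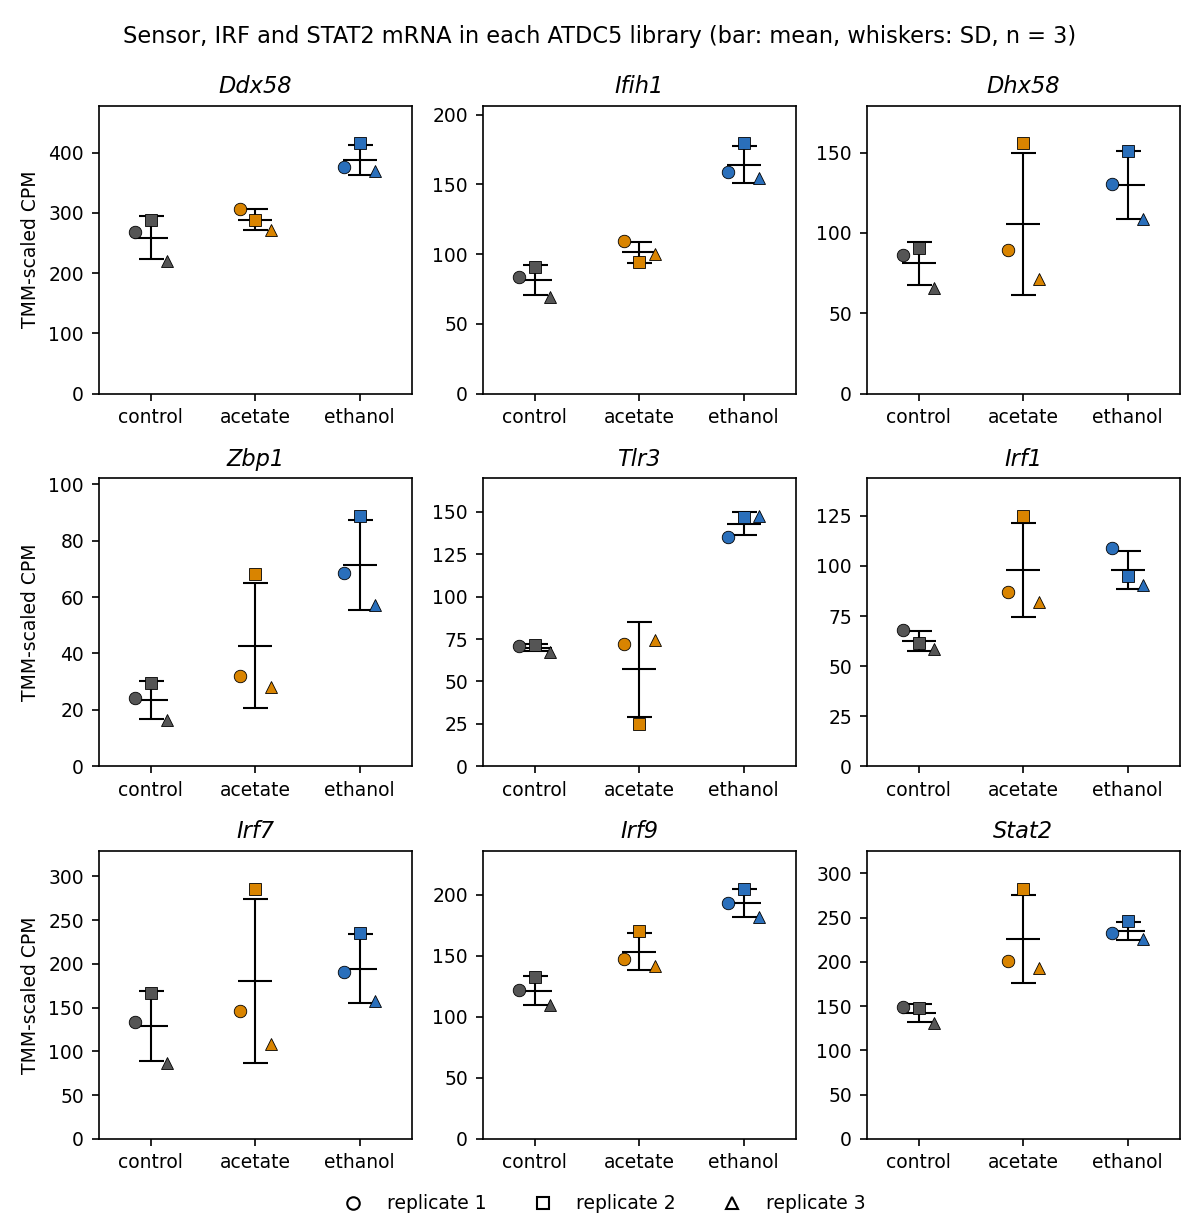
TMM-scaled CPM (linear axes from 0) of the 9 genes in each library, by group; symbols give the replicate number, bars the mean and whiskers the SD of 3 libraries. Ethanol libraries lie above all control libraries in 8 of the 9 genes, and acetate replicate 2 (orange square) departs from the other acetate libraries upward in Dhx58, Zbp1, Irf1, Irf7 and Stat2 and downward in Tlr3.

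Stat2, the signal-carrying subunit of ISGF3 (chromosome 10, 128270559 to 128292849, plus strand), was higher in every treated library than in any control library. Control replicates had 148.5, 148.0 and 130.5 CPM, acetate replicates 201, 283 and 193, and ethanol replicates 232, 246 and 226. Acetate and ethanol overlapped. Stat2 rose with ethanol (0.72 ± 0.15, adjusted p = 0.035). With acetate the difference was 0.64 ± 0.15 (adjusted p = 0.093), and without acetate replicate 2 it was smaller, 0.47 ± 0.09, and passed (adjusted p = 0.018, with 4.3e-09 to 0.31 over its alternatives). Ethanol and acetate differed by 0.08 ± 0.15 (adjusted p = 0.76), which does not show that they act alike.

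Irf9, the DNA-binding subunit of ISGF3 (chromosome 14, 55603571 to 55610030, plus strand), was ordered control, acetate, ethanol with no overlap between groups. Its values were 122, 133 and 109.4 CPM in control, 148, 170.4 and 142 in acetate, and 193, 205 and 182 in ethanol. It rose with ethanol by 0.67 ± 0.12 (adjusted p = 0.020). Acetate against control gave 0.33 ± 0.12 (adjusted p = 0.25) and ethanol against acetate 0.33 ± 0.12 (adjusted p = 0.17). The direct difference without acetate replicate 2 was 0.41 ± 0.10 and passed (adjusted p = 0.026, with 3.4e-05 to 0.42 over its alternatives). Exons of Irf9 overlap those of Rnf31 on the same strand, so reads may have been shared. Rnf31 stood at 43.8 ± 1.05 CPM in control and 57.7 ± 1.62 in ethanol (0.39 ± 0.15, adjusted p = 0.21). In acetate it stood at 63.8 ± 15.3 CPM (0.51 ± 0.15 against control, adjusted p = 0.172).

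Irf1, a factor induced by both interferon and NF-kB signalling (chromosome 11, 53770014 to 53778374, plus strand), had 68.0, 61.4 and 58.5 CPM in control. Acetate libraries had 87.2, 125 and 82.1 and ethanol libraries 109, 95.1 and 90.3. Every treated library was above every control library, and the treatments overlapped, with equal means of 98.1 CPM. Neither difference from control passed with all libraries in the fit: acetate gave 0.62 ± 0.17 (adjusted p = 0.13) and ethanol 0.64 ± 0.17 (adjusted p = 0.068). Both did without acetate replicate 2, acetate at 0.43 ± 0.10 (adjusted p = 0.045, with 2.5e-06 to 0.36 over its alternatives) and ethanol at 0.64 ± 0.09 (adjusted p = 0.0014, with 2.9e-20 to 0.22 over its alternatives). Both comparisons share the control libraries. Ethanol against acetate gave 0.02 ± 0.17 (adjusted p = 0.94).

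Irf7, the main inducer of type I interferon genes (chromosome 7, 141262706 to 141266481, minus strand), had the widest spread of the factors. Control libraries had 134, 166 and 86.7 CPM, acetate libraries 147, 286 and 108, and ethanol libraries 191, 236 and 158. It was the only one of the 9 genes in which ethanol and control overlapped, since ethanol replicate 3 was below control replicate 2. Neither treatment passed against control, with 0.62 ± 0.35 for ethanol (adjusted p = 0.385) and 0.41 ± 0.35 for acetate (adjusted p = 0.535). Between libraries of the same replicate number the ethanol value was higher in 3 of 3, by 0.50 to 0.85 on the log2 scale. Exons of Irf7 overlap those of Phrf1 on the opposite strand, and exons of Dhx58, Irf1 and Tlr3 overlap genes on the opposite strand that are not analysed here. Whether strand was used in the counting was not given in the sources used here, so reads of overlapping genes may not have been told apart.

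**Figure D2:**
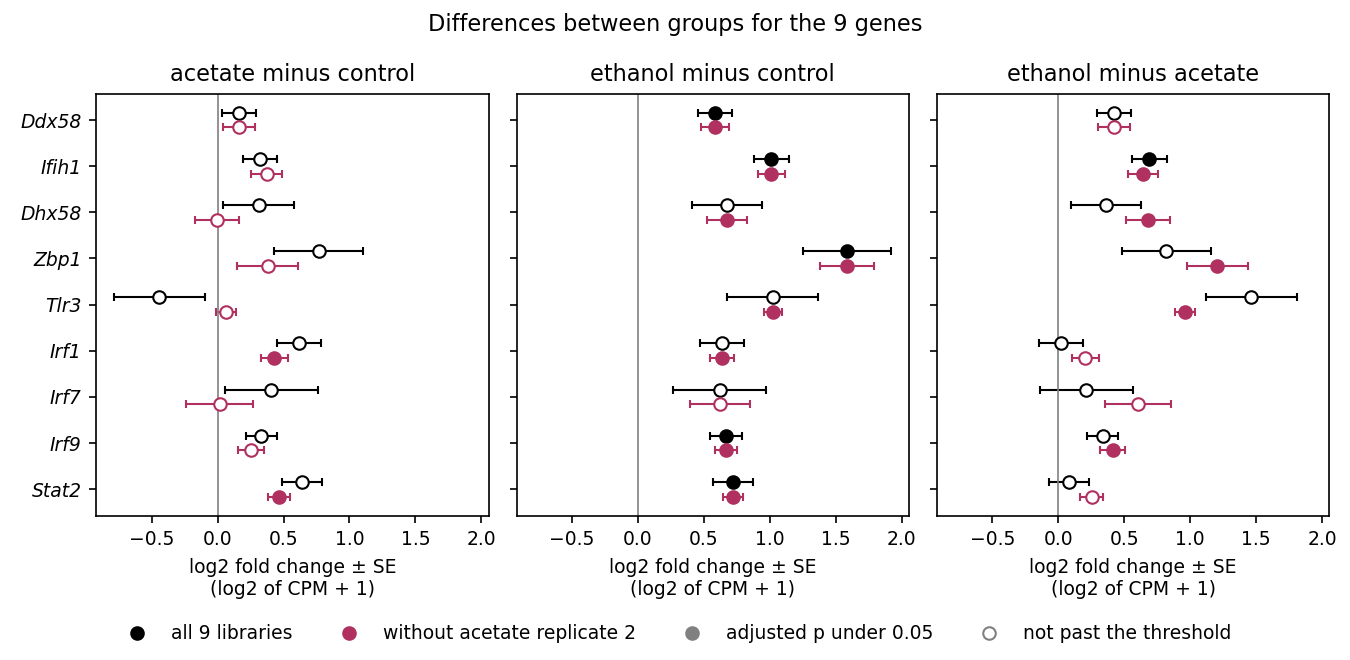
Log2 fold changes ± SE (log2 of CPM plus 1) of the 9 genes in the 3 comparisons, with all 9 libraries (black) and without acetate replicate 2 (red); filled points have an adjusted p under 0.05. With ethanol against control 5 genes are filled with all libraries and 8 without acetate replicate 2, at unchanged fold changes; Tlr3 (-0.44 to 0.06) and Dhx58 (0.31 to -0.01) change sign for acetate against control.

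Counted over the 9 genes, the 5 that rose with ethanol stand beside 1.48% of all tested genes, and the median log2 fold change of the 9 was 0.68, against 0.00 over all tested genes. At an unadjusted p under 0.05 there were 8 of 9, all higher, where 8.55% of all tested genes were higher at that p. Ethanol and control did not overlap in 8 of the 9, all higher in ethanol, where 20.1% of all tested genes were higher without overlap. The number past the threshold depended on single libraries. It was 1 without control replicate 1 or 3, 2 without control replicate 2, and 1 without ethanol replicate 1, 2 or 3. Ifih1 passed in each of these fits, with Irf9 as the other without control replicate 2. Leaving out acetate replicate 2 gave 8 of 9, against a background of 10.2%. Irf7 was the exception, and with replicate number as a block the number was 6, with Dhx58 added, against 3.27%. All 9 genes were higher in 3 of 3 ethanol libraries than in the control library of the same replicate number, as were 33.7% of all tested genes.

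For acetate against control the number past the threshold was 0 of 9 in limma, against a background of 0.505% of all tested genes higher and 0.497% lower. At an unadjusted p under 0.05 there were 5 of 9, all higher, where 9.44% of all tested genes were higher at that p, and voom on recovered reads also gave 0. The median of the 9 was 0.33, and 8 had a positive fold change. Stat2, Irf1, Ifih1 and Irf9 had all acetate libraries above all control libraries, that is 4 of 9, where 11.4% of all tested genes were higher without overlap. Without acetate replicate 2 the median was 0.25 and 2 genes passed, Stat2 and Irf1, against a background of 1.95%. With the GC trend removed the same 2 genes passed, against a background of 3.16%.

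For ethanol against acetate 1 of the 9 was past the threshold, Ifih1, against a background of 0.886% of all tested genes higher in ethanol and 2.84% lower. The groups did not overlap in 4 of the 9 (Ddx58, Ifih1, Tlr3 and Irf9), all higher in ethanol, where 12.5% of all tested genes were higher without overlap. No gene passed without ethanol replicate 1, 2 or 3. Without acetate replicate 1 or 3, Tlr3 joined Ifih1. Without acetate replicate 2 the number was 5, namely Ifih1, Dhx58, Zbp1, Tlr3 and Irf9, against a background of 2.89%. With replicate number as a block it was 2 (Ifih1 and Zbp1), against 1.73%, and with the GC trend removed it was 2 (Tlr3 and Irf9), against 5.11%.

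The departures of acetate replicate 2 followed the GC content of the 9 transcripts, which runs from 40.0% in Tlr3 and 42.8% in Ifih1 to 53.9% in Dhx58 and 55.3% in Irf7. Against the mean of acetate replicates 1 and 3, Tlr3 differed by -1.52 on the log2 scale and Ifih1 by -0.15. At the other end Irf7 differed by 1.18, Zbp1 by 1.16 and Dhx58 by 0.95. Across the 9 genes the Pearson r between GC content and this difference was 0.92, as a description. After removal of each library's GC trend the difference was -0.11 for Tlr3, and 0.79 for Ifih1, 0.83 for Irf7, 0.95 for Zbp1 and 0.68 for Dhx58, so that 8 of the 9 genes then lay higher in acetate replicate 2 than in the other acetate libraries. The part of GC content in the acetate results of these genes was not tested further.

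**Figure D3:**
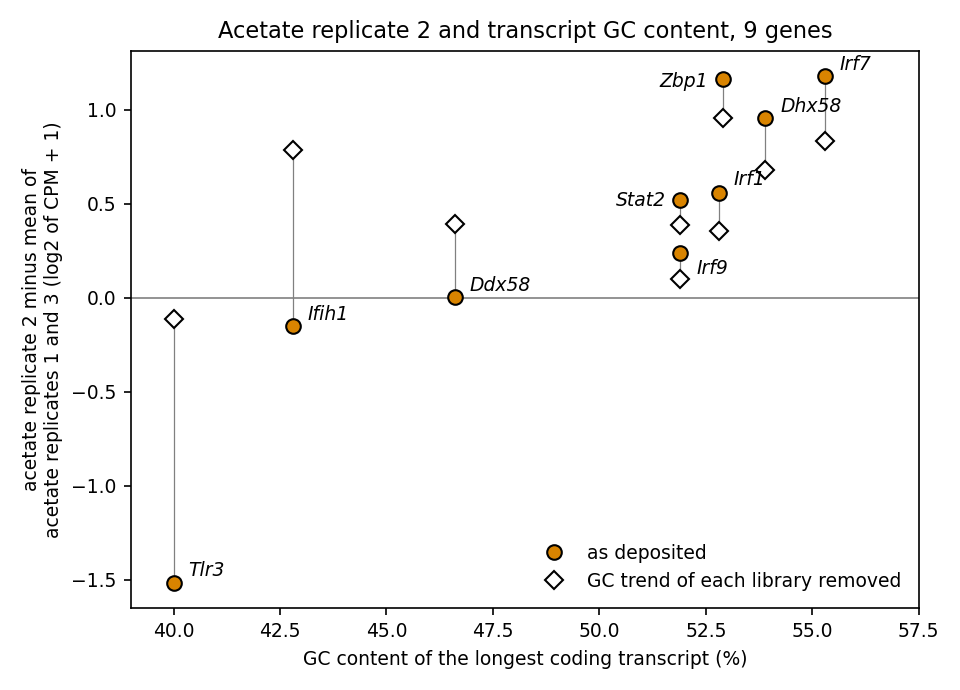
Difference of acetate replicate 2 from the mean of acetate replicates 1 and 3 (log2 of CPM plus 1) against the GC content of the longest coding transcript, for the 9 genes as deposited (orange) and with each library's GC trend removed (open diamonds). As deposited the difference runs from -1.52 for Tlr3 to 1.18 for Irf7; after removal it is above 0 in all genes but Tlr3.

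Within groups the 9 genes tended to be high and low in the same libraries. Control replicate 3 was the lowest control library for all 9 genes, acetate replicate 3 the lowest acetate library for 7 and ethanol replicate 3 the lowest ethanol library for 8. Replicate 2 was the highest library for 7 genes in control, 6 in acetate and 7 in ethanol. How common this order is among all tested genes was not counted, so it is not shown to be particular to the 9. Over the 9 libraries the 36 pairs of genes had Pearson correlations of -0.12 to 0.98 with a median of 0.78. The lowest was that of Tlr3 with Irf7. Leaving out acetate replicate 2, they ran from 0.64 to 1.00 with a median of 0.91. These correlations include the differences between groups, and describe libraries that share groups and replicate numbers.

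Compared per kilobase of the longest coding transcript, control cells held most Ddx58 (66.8 ± 9.11 CPM per kilobase) and Irf7 (57.7 ± 17.9), followed by Irf9, Dhx58, Stat2 and Irf1 at 41.0 to 29.3. Tlr3 (15.9 ± 0.51), Ifih1 (14.9 ± 1.95) and Zbp1 (11.8 ± 3.38) were lowest. In control the only neighbours in this order whose ranges of mean ± SD did not touch were Irf1 and Tlr3. In ethanol the order of the first 6 genes was the same, and Zbp1, at 35.9 ± 8.06 CPM per kilobase, stood above Tlr3 (32.5 ± 1.58) and Ifih1 (30.03 ± 2.44), with overlapping ranges. Neighbours whose ranges did not touch were Irf7 and Irf9, and Stat2 and Irf1. In acetate Irf7 (80.6 ± 41.9) had a higher mean than Ddx58 (74.6 ± 4.53), with overlapping ranges. The order depends on the transcript length used: divided by the union of all annotated exons, Dhx58 (24.8) and Stat2 (24.0) stood above Irf9 (22.6) in control.

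None of 6 other tested genes of the IRF family passed in any comparison in the fit of group means to all 9 libraries. Their median was 0.34 with acetate and 0.22 with ethanol, the repressor gene Irf2 stood at 51.9 ± 2.75 CPM in control and 68.5 ± 1.83 in ethanol (0.40 ± 0.11, adjusted p = 0.079; 0.043 with replicate number as a block), and 2 of the 6 passed with ethanol with the block, with the GC trend removed or without acetate replicate 2. Of all tested genes 3.27% were higher with ethanol with the block and 10.2% without acetate replicate 2. With the GC trend removed 1100 of all 12868 were higher with ethanol. In that fit 1 of the 6 passed with acetate, where 3.16% of all tested genes were higher. By level the highest of these genes was Irf2bp2, which codes for a partner of IRF2, at 119.5 ± 2.21 CPM in control, 158 ± 15.1 in acetate (0.40 ± 0.11, adjusted p = 0.148) and 127 ± 10.8 in ethanol. Irf4 and Irf8 were below the filter, at no more than 0.553 CPM in any library.

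Of 13 other tested sensors and their cofactors, 2 rose with ethanol and none fell. They were Ddx60, an interferon-induced helicase (69.3 ± 12.6 to 159 ± 13.9 CPM, 1.20 ± 0.27, adjusted p = 0.043), and Adar, whose product edits double-stranded RNA and limits its sensing by MDA5 (91.6 ± 4.4 to 160.0 ± 9.36 CPM, 0.80 ± 0.18, adjusted p = 0.041). Without any 1 control or ethanol library this count was 0. Without acetate replicate 2 it was 9, all higher, where 10.2% of all tested genes were higher (1.48% with all libraries). Cgas, the sensor of cytosolic DNA, was higher in ethanol (44.9 ± 3.39 CPM) than in acetate (26.9 ± 4.92, log2 difference 0.73 ± 0.14, adjusted p = 0.025). It was the 1 gene of the 13 that passed there, where 0.886% of all tested genes were higher. That count of 1 was 0 without control replicate 1 or 2 or any ethanol library, 2 without acetate replicate 1 or 3 and 6 without acetate replicate 2. In that last fit 2.89% of all tested genes were higher in ethanol. With acetate against control none of the 13 passed, and 2 did with the GC trend removed (1 higher, 1 lower). The 2 highest by level were the helicase gene Dhx9, at 225 ± 29.9 CPM in control and 195 ± 91.3 in acetate (-0.33 ± 0.33, adjusted p = 0.586), and Trim25, which codes for a ubiquitin ligase acting on RIG-I, at 175 ± 5.53 and 214 ± 18.0 CPM (0.29 ± 0.10, adjusted p = 0.24).

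Adaptors and kinases pass the signal from sensors to IRF factors, and their list here also held Mlkl, the gene of the necroptosis executioner. Of 18 tested, 1 rose with ethanol and 1 fell, where 1.48% of all tested genes rose and 2.45% fell. The gene that rose was Mlkl, which is not a step from sensors to IRF factors. Tbkbp1, which codes for a scaffold of the kinase TBK1, fell from 13.3 ± 1.40 to 7.78 ± 0.641 CPM (-0.70 ± 0.16, adjusted p = 0.044). The median of this list was 0.12. Its 2 calls became 0 without any 1 control library or without ethanol replicate 2 or 3, and 1 without ethanol replicate 1. They became 5 without acetate replicate 2 (4 higher, 1 lower), where 10.2% of all tested genes were higher. Tbkbp1 was also lower in ethanol than in acetate (21.4 ± 4.76 CPM, log2 difference -1.33 ± 0.16, adjusted p = 0.00364), and of the 2 calls in that comparison 1 was left without ethanol replicate 2 or 3. There 0.886% of all tested genes were higher in ethanol and 2.84% lower. None of 9 interferon receptor chains and JAK kinases passed in any comparison in the fit of group means to all 9 libraries, and their median with ethanol was 0.02. Without acetate replicate 2, 1 was higher and 1 lower in ethanol than in control, and 1 was lower in ethanol than in acetate with the replicate block or without acetate replicate 1. Jak1, which codes for a kinase of the interferon receptors, was at 236 ± 6.03 CPM in control, 247 ± 32.8 in acetate and 232 ± 10.6 in ethanol. Jak2 was at 108 ± 4.72, 93.8 ± 35.5 and 115 ± 13.5.

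Interferon transcripts themselves were near the limit of detection. None of 11 interferon genes reached a mean of 1 CPM, and Ifna1, Ifna4, Ifna5, Ifnl2 and Ifnl3 had no read in any library, where a count of 0 allows up to 3 reads, or 0.0692 to 0.104 CPM by library. Ifnb1, the first type I interferon gene of most non-immune cells, had 8, 2 and 5 recovered reads in control, 3, 7 and 5 in acetate and 11, 13 and 9 in ethanol. Scaled to library size, ethanol libraries had 0.208 to 0.313 CPM, and overlapped control libraries at 0.0696 to 0.22 CPM. These numbers were not tested, since the gene was below the filter, and they cover counting error only.

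Genes downstream of ISGF3 carry the response to interferon. Of 42 other tested targets, 19 rose with ethanol and none fell, with a median of 0.80, where 1.48% of all tested genes rose. With replicate number as a block 27 passed, where 3.27% of all tested genes were higher. Rsad2, which codes for the antiviral enzyme viperin, went from 80.4 ± 12.4 to 265 ± 14.2 CPM (1.72 ± 0.13, adjusted p = 6.9e-04) and Ifit1 from 130.4 ± 16.2 to 351 ± 18.2 CPM (1.43 ± 0.13, adjusted p = 0.0012). The dynamin-like GTPase gene Mx1 (1.33 ± 0.20, adjusted p = 0.0083) and the chemokine gene Cxcl10 (1.30 ± 0.17, adjusted p = 0.0048) followed. The count was 12 without control replicate 1 and 7 without ethanol replicate 2. It was 36 without acetate replicate 2, where 10.2% of all tested genes were higher (1.48% with all libraries). With acetate 2 of the 42 rose, Mx2 (0.95 ± 0.18, adjusted p = 0.047) and Cxcl10 (0.92 ± 0.17, adjusted p = 0.043), where 0.505% of all tested genes rose. This count was 0 without any 1 control library, any 1 ethanol library or acetate replicate 3, and 1 without acetate replicate 1. It was 4 without acetate replicate 2, where 1.95% of all tested genes were higher. Under both other scalings it was 0. With replicate number as a block it was 6, where 175 of all 12868 tested genes were higher. In ethanol against acetate 11 were higher in ethanol, where 0.886% of all tested genes were. They were led by Rsad2 (1.13), Ifit1 (1.11), Parp14 (1.10) and Gbp2 (1.06). The count was 24 without acetate replicate 2, where 2.89% of all tested genes were higher. It was 5, 4 and 7 when ethanol replicate 1, 2 or 3 was left out.

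Among 14 tested feedback genes 2 rose with ethanol, where 1.48% of all tested genes rose. They were Usp18, which codes for the brake on the interferon receptor (170 ± 32.0 to 320 ± 41.5 CPM, 0.92 ± 0.20, adjusted p = 0.038), and Nlrc5, the activator of MHC class I genes and a regulator of sensor signalling (11.4 ± 1.28 to 20.4 ± 1.97 CPM, 0.79 ± 0.18, adjusted p = 0.048). This count was 0 without any 1 control or ethanol library and 1 without acetate replicate 3. It was 7 (6 higher, 1 lower) without acetate replicate 2, where 10.2% of all tested genes were higher. None of the 14 passed with acetate, where Usp18 stood at 269 ± 62.1 CPM (0.66 ± 0.20 against control, adjusted p = 0.179). Without acetate replicate 2 or with the GC trend removed 1 passed, where 1.95% and 3.16% of all tested genes were higher. With replicate number as a block 2 passed, Usp18 among them (adjusted p = 0.0296), where 175 of all 12868 tested genes were higher. Usp18 and Isg15 are also counted among the ISGF3 targets. Eif2ak2 is counted among both the other sensors and the ISGF3 targets, and Irf3 among both the adaptors and the other IRF genes.

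**Figure D4:**
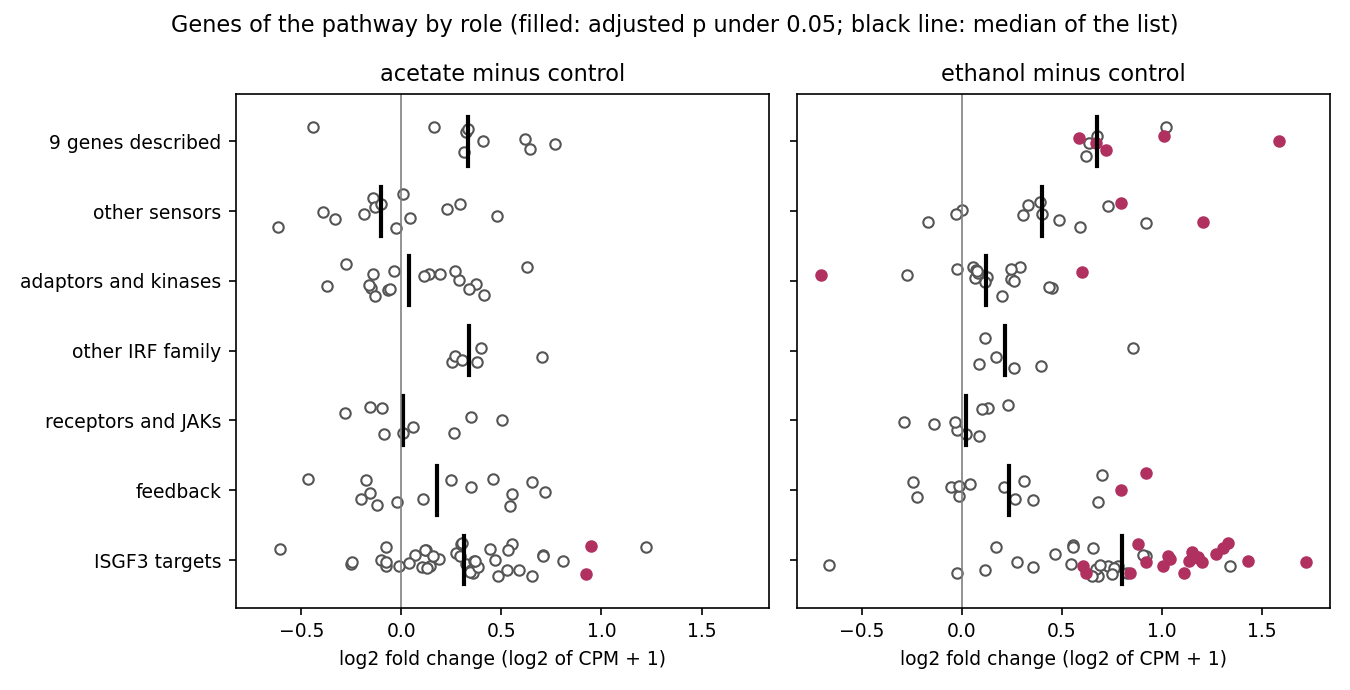
Log2 fold changes (log2 of CPM plus 1) of the 9 genes and of lists of other pathway genes, for acetate and for ethanol against the same control libraries; each point is a gene, filled at an adjusted p under 0.05, and the black line is the median of the list. With ethanol the medians are 0.68 for the 9 genes, 0.80 for ISGF3 targets, 0.12 for adaptors and kinases and 0.02 for receptors and JAKs.

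Markers of immune cells, in which these genes are best known, were scarce. Of 12 macrophage markers Tyrobp had no read in any library and 2 had a mean of at least 1 CPM, and their summed level was 4.38 to 5.63 CPM in control, 4.47 to 6.08 in acetate and 4.18 to 4.62 in ethanol. Of 10 lymphocyte markers Cd3e and Nkg7 were among those with no read, and the sum was 0.192 to 0.381 CPM in control, 0.102 to 0.379 in acetate and 0.215 to 0.505 in ethanol. Of 8 dendritic cell markers Siglech had no read. The 7 without Bst2, which is an ISGF3 target too, summed to 0.934 to 1.067 CPM in control, 0.711 to 1.25 in acetate and 1.74 to 2.10 in ethanol; with Bst2 the sums were 199.7 to 314.7, 195 to 602 and 206 to 369.8. The 6 endothelial markers summed to 1.32 to 1.51 CPM in control, 1.19 to 1.95 in acetate and 2.24 to 2.48 in ethanol, and the 7 epithelial markers to 2.69 to 2.86, 1.57 to 2.07 and 1.23 to 2.08. Among the 7 markers Xcr1 had 0.522 to 0.61 CPM in control and 1.28 to 1.68 in ethanol, and the other 6 summed to 0.357 to 0.457 in control and 0.415 to 0.625 in ethanol, which overlap. Of the endothelial markers Pecam1 had 0.686 to 0.934 CPM in control and 1.36 to 1.48 in ethanol. Kdr had 0.302 to 0.406 and 0.596 to 0.649. Tek, Cdh5, Emcn and Cldn5 overlapped between control and ethanol, at no more than 0.24 CPM in any library. The higher dendritic and endothelial sums in ethanol went with the rise of the 9 genes, and their part in it was not tested.

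Among the 10 genes outside the set whose log2 levels over the 9 libraries were most like the mean standardised level of the 9 genes were Oasl2, Mx1, H2-T22, Gm12250, Cxcl11, Ifit3, Pax5, Hap1 and Ifit3b, with Pearson r from 0.97 to 0.99. Oasl2 stood at 378 CPM in control, 457 in acetate and 578 in ethanol, and Mx1 at 34.6, 56.7 and 87.9. Pax5, the B cell factor gene, was low, at 1.43, 2.58 and 4.72 CPM. Reads of Ifit3 and Ifit3b, closely related copies, may have been shared.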

How the data were processed

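Messenger RNA of 9 ATDC5 libraries was measured with a stranded Illumina mRNA kit, per the labels' protocols. The authors deposited log2 values scaled by TMM, per the name of the file. The submitters' processing notes name Partek, Bowtie2 2.2.5, STAR 2.7.8a and mm10, with no role or order, and the counting step was not given in the sources used here. The lowest value of each library, taken as 1e-05 read, was subtracted on the linear scale, which gave TMM-scaled CPM, with 1 read worth 0.0231 to 0.0348 CPM. Of values near 1 to 20 reads, 85.6% to 87.2% were whole within 0.02 read, so no count test was used for the main results. Voom on the recovered reads was 1 of the 22 alternative settings. The TMM-scaled CPM were analysed as log2(CPM + 1) by limma 3.58.1 (R 4.3.3, 1 mean per group, 9 libraries, variance trend). This procedure was tested on simulated counts with no replicate effect and no GC trend, so that test does not cover these features of the data. Same-numbered libraries correlated in their deviations from group means at 0.55, 0.36 and 0.67 (ethanol, control) and 0.15, 0.25 and 0.61 (ethanol, acetate). For acetate and control the values were 0.24, -0.10 and 0.41, the negative one at replicate 2. The labels do not state whether the replicate numbers pair the libraries, and these values do not settle it for any of the comparisons. The treatment text in the labels describes other material, livers and another cell line, and was not used. GC content (lowess, span 0.3) and positions came from GENCODE M21 (GRCm38, as mm10), where 24919 genes matched by symbol and 453 by synonym. Promoters came from RefSeq. The genes and lists were chosen with earlier results of these data known. Named in every case were the 9 genes, from each list up to 4 genes past the threshold per comparison by fold change (or, with none, up to 2 by level), and the 10 genes of most similar pattern. Ripk3, Irf4, Irf8, Ifnb1 and the other interferon genes are named outside that rule as below the filter, and Rnf31 and Phrf1 as overlapping; these were chosen after their values were seen. Some genes of the lists, and the list of other STAT genes, are not reported here.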

Additional observations from a re-analysis of the deposited data

How the results depend on the processing

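Of 594 fold changes of the 9 genes under an alternative, 493 kept their direction and their side of the threshold, 58 passed it anew, 32 no longer passed and 11 turned direction. Those that turned were, for acetate against control, Dhx58 without acetate replicate 2 (-0.005661) and Tlr3 without acetate replicate 2 (0.06394), with the GC trend removed, with or without the replicate block (0.03189), and with the block without acetate replicate 2 (0.08231). For ethanol against acetate they were Irf1 under quantile scaling (-0.01689) and without acetate replicate 1 (-0.05066), acetate replicate 3 (-0.09374) or ethanol replicate 1 (-0.05573), and Irf7 (-0.09297) and Stat2 (-0.02313) without acetate replicate 3. With 1 library left out, acetate against control ran from -0.005661 to 0.5492 for Dhx58 and from -0.7056 to 0.06394 for Tlr3, and ethanol against acetate reached 0.2063 for Irf1, 0.6059 for Irf7 and 0.2522 for Stat2.

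Leaving out 1 library gave 0 to 2 of the 9 genes for acetate against control, 1 to 8 for ethanol against control and 0 to 5 for ethanol against acetate, and over all genes 0 to 448, 98 to 2766 and 103 to 1108. In the same order of comparisons, with all libraries 129, 506 and 480 genes passed, and at an unadjusted p under 0.05 there were 1875, 2444 and 2709. A filter at 5 CPM gave 52, 283 and 307 genes. The replicate block gave 293, 1074 and 823, the 6 libraries compared alone 20, 3443 and 107, and removal of the GC trend 770, 2276 and 1555. The block with the GC trend removed gave 2632, 5041 and 4288, and the block without acetate replicate 2 gave 2773, 6466 and 4262. Of the 9 genes, GC removal passed 2, 7 and 2, the block with GC removal 6, 9 and 6, and the block without acetate replicate 2 passed 6, 9 and 9. With the 6 libraries alone 0, 8 and 0 passed, no filter gave 3 for ethanol against control, and median-of-ratios scaling, quantile scaling and the block each gave 2 for ethanol against acetate. The causes were not tested. GC removal spends degrees of freedom that the fit does not count. The very low adjusted p-values, such as 2.32e-51 for Ifih1 with ethanol, come from the block without acetate replicate 2. They are no measure of strength. The block changed no other call of the 9 genes than those of Dhx58 and Zbp1 given in the report. The labels do not state whether the replicate numbers pair the libraries. For acetate against control the block passed 6 of the 42 ISGF3 targets (2 without it). Of the 14 feedback genes it passed 2 (0 without it), Usp18 among them. With the block and GC removal 5 of the 13 other sensors and 3 of the 6 other IRF genes passed in that comparison, and with the block without acetate replicate 2, 7 and 3. Settings for the lists of other pathway genes were chosen after seeing the data.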
